A study of Saccharomyces cerevisiae with 20 samples.

Results

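The 7 genes described here make and break down trehalose in Saccharomyces cerevisiae. They are TPS1 (YBR126C), TPS2 (YDR074W), TPS3 (YMR261C), TSL1 (YML100W), NTH1 (YDR001C), NTH2 (YBR001C) and ATH1 (YPR026W), 7 of the 6722 genes listed in all 8 deposited tables, chosen by name for their role in the pathway. Their mRNA was measured by poly-A selected RNA-Seq of whole cultures in 10 groups of 2 libraries, 20 libraries in all, called libraries A and B of a group here. The groups were strains lacking TUP1, SDS3, XBP1 or ISW2 (Δtup1, Δsds3, Δxbp1 and Δisw2) and wild type (WT), each at stationary phase, after 3 days in YPD (rich medium with glucose), and at diauxic shift, when glucose had been undetectable for 2 hours. All strains derive from W303 RAD5+ and were grown at 30 °C, and in each null mutant an antibiotic resistance marker replaces the whole gene, so all groups share that background. Tup1 is a corepressor, Sds3 a subunit of the Rpd3L histone deacetylase complex, Xbp1 a repressor that binds DNA, and Isw2 a chromatin remodeler that uses ATP.

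Trehalose is a disaccharide of glucose that yeast stores as it runs out of glucose and that protects proteins and membranes in dry, hot or starved cells. Tps1 joins glucose 6-phosphate and UDP-glucose into trehalose 6-phosphate, and Tps2 removes the phosphate. Both sit in a complex with the regulatory subunits Tps3 and Tsl1, which resemble each other. The neutral trehalase Nth1 cleaves trehalose in the cytosol and is switched on by protein kinase A, which phosphorylates it, and by 14-3-3 proteins. Nth2 is its paralog, and the acid trehalase Ath1 acts on trehalose outside the cytosol. Many genes of the pathway are activated under stress by Msn2 and Msn4, which bind the stress response element (STRE).

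To show what lies before these genes, the 500 bases before each start codon were read from the R64 reference (the build also called sacCer3, from strain S288C, not W303) and searched on both strands. The STRE was searched as CCCCT, the Xbp1 core as CTCGA, and the site of Mig1, a repressor that recruits Tup1, as CCCCGC or CCCCAC. The STRE letters occurred 6 times before TPS1, 5 before TSL1, 4 before TPS2, 3 before NTH1, 2 before TPS3, 1 before ATH1 and 0 before NTH2, and 34.1% of 6000 such windows hold at least 1 match. At least 2 matches occur in 8.13% of windows, at least 3 in 1.83%, and at least 4 in 0.45%. The Xbp1 core letters were found before TSL1 (2 matches), TPS2 and TPS3 (1 each), where 39.5% of windows hold at least 1 match, and Mig1 letters before TSL1 (2 matches), TPS1 and NTH2 (1 each), against 13.6% of windows. Each Mig1 match before TSL1 overlaps a STRE match by 1 base. A few matches are shown with 10 bases on each side, on the strand of the gene, with the match or its reverse complement in capitals. The first 4 show the STRE letters nearest to the start codons of TPS1, TPS3, NTH1 and ATH1, and the last 4 show the other 2 motifs.
TPS1 STRE, chrII:490617-490641, gene on the - strand: aggggctctcAGGGGggcgccatgg
TPS3 STRE, chrXIII:793572-793596, gene on the - strand: attaattaatCCCCTtcagcacgca
NTH1 STRE, chrIV:452613-452637, gene on the - strand: agaaattttcCCCCTatcgttttcc
ATH1 STRE, chrXVI:615065-615089, gene on the + strand: ctcttctttgCCCCTcaaaatttat
TPS2 Xbp1 core, chrIV:593619-593643, gene on the + strand: gagagacaatCTCGAttctcatttt
TPS3 Xbp1 core, chrXIII:793674-793698, gene on the - strand: aacacctaacCTCGAtagagttgca
TSL1 Xbp1 core, chrXIII:70325-70349, gene on the + strand: ggattgcttgCTCGAaagtgtctaa
NTH2 Mig1, chrII:241541-241566, gene on the - strand: aaatctccgcGCGGGGtaatttgaag
These matches are descriptions of letters in a window, and binding was not measured in the data used here.

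The coding regions lie on 4 chromosomes of R64: TPS1 (II:488905-490392) and NTH2 (II:238941-241283), TPS2 (IV:593893-596583) and NTH1 (IV:450220-452475), TPS3 (XIII:790205-793369) and TSL1 (XIII:70624-73920), and ATH1 (XVI:615379-619014). None overlaps another annotated gene. The paralogs could be told apart by reads of 37 bases, since 0 of the 37-base stretches of any of the 7 genes occur elsewhere in the reference. The longest identical run was 33 bases between NTH2 and NTH1 and 15 bases between TPS3 and TSL1.

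Reads on genes numbered 20963633 to 32558227 per library at diauxic shift. At stationary phase they numbered 9994448 to 28421881 in library A and 2543155 to 4424289 in library B. Each deleted gene had at most 8 reads in its deletion strain, against 144 to 27502 in WT. The Δsds3 libraries at diauxic shift stand far apart, with 31.9% of 6531 genes at least 2-fold different between them, against 0.72% to 3.54% in the other 9 groups, so levels and ratios of the 7 genes in that group are given per library. The 7 genes together took 2716 to 5405 RPM (reads-per-million of all reads on genes) in the 20 libraries. In whole cultures, fewer cells of a type and less RNA per cell cannot be told apart.

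Per coding base, TPS1 was the most abundant of the 7 transcripts, with a median of 969 and a maximum of 1593 RPM in each kilobase of coding sequence (scaled between libraries by the trimmed mean of M values, TMM). NTH1 followed with a median of 252, in a range of 182 to 503, and TPS3 was the lowest in median, at 20.3 to 91.0. Over the 20 libraries the highest level of a gene was 2.76 (NTH1) to 7.08 times (ATH1) its lowest, but both ends rest on the Δsds3 libraries of diauxic shift, and without them it was 2.27 (TPS2) to 6.26 times (TSL1) and 3.54 times for ATH1. The orders below are those of the other 9 groups. On the scale of TMM-scaled RPM, which compares 1 gene across groups, the mean level of TPS1 ran from Δxbp1 at diauxic shift (1797 ± 78.3 SD, n = 2 here and in each group) through Δisw2, Δtup1 and WT at diauxic shift, Δtup1 at stationary phase, and WT, Δisw2 and Δxbp1 at stationary phase to Δsds3 at stationary phase (501 ± 26.4). Of the 8 neighbouring pairs in that order, 3 did not overlap, and the Δsds3 libraries of diauxic shift, at 585 and 2370, lay within and above it. TSL1 had the same groups at its ends, with 1106 ± 172 in Δxbp1 at diauxic shift and 236 ± 40.6 in Δsds3 at stationary phase, beside 201 and 1054 in the Δsds3 libraries of diauxic shift. TPS2 and NTH1 were highest in Δtup1 at stationary phase (671 ± 23.4 and 981 ± 41.9) and lowest in Δsds3 at stationary phase (319 ± 22.3 and 416 ± 6.19). The Δsds3 libraries of diauxic shift had 241 and 542 for TPS2 and 452 and 1136 for NTH1, so library A lay below every other group for TPS2 and library B above every other group for NTH1. TPS3 differed in its order, with means of 140 to 169 in both Δtup1 groups and in Δsds3 at stationary phase, 178 and 288 in the Δsds3 libraries of diauxic shift, and means of 70.2 to 92.9 in the 6 groups of Δxbp1, Δisw2 and WT. ATH1 was highest in Δxbp1 at stationary phase (705 ± 72.4) and lowest in the 2 Δsds3 groups (218 ± 5.35 at stationary phase, and 249 and 107 in the 2 libraries of diauxic shift).

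**Figure D1:**
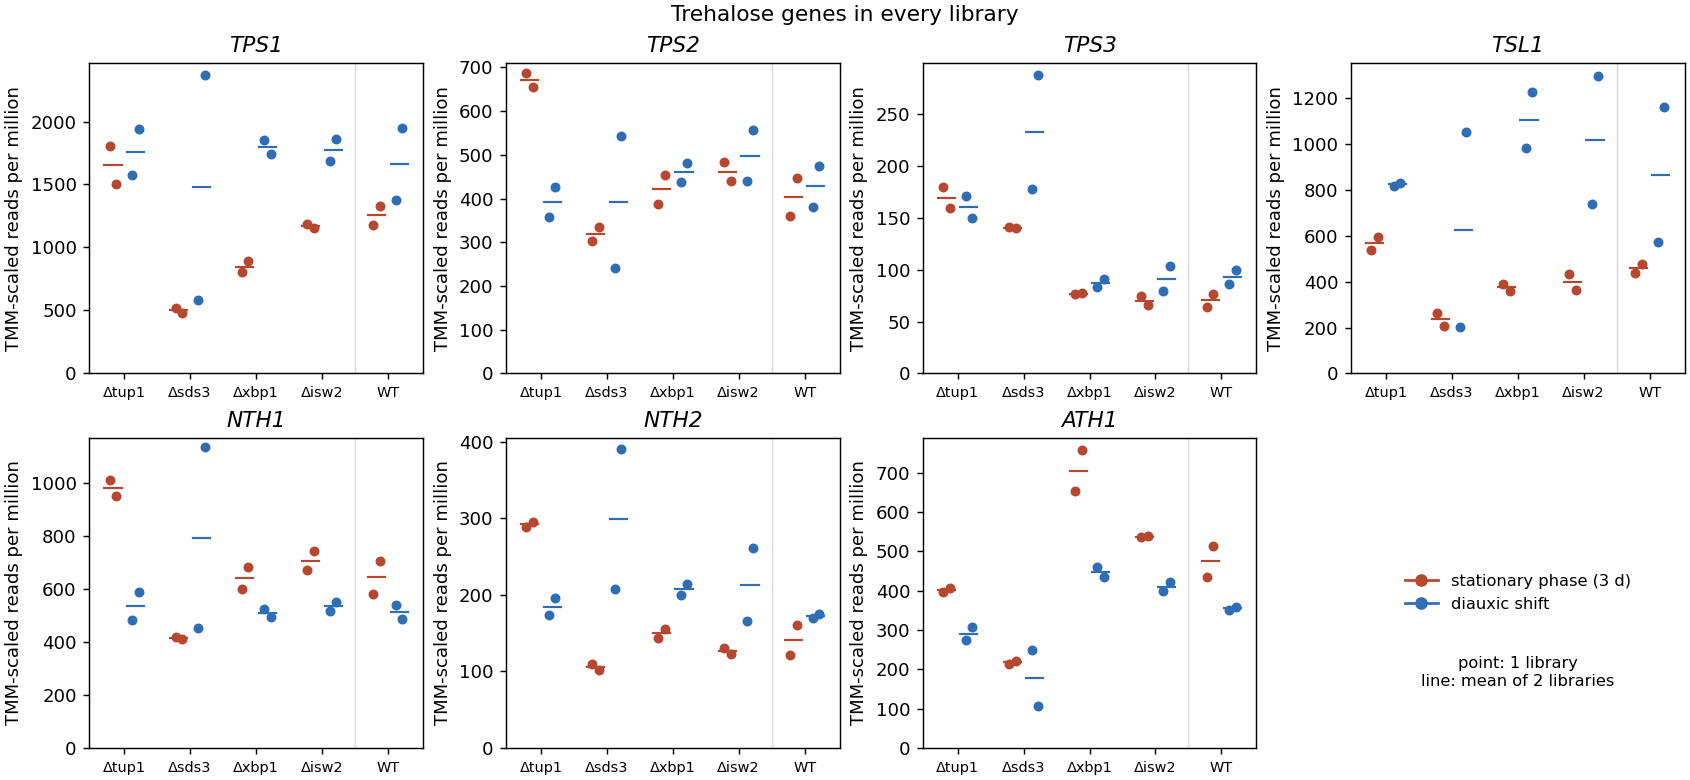
TMM-scaled RPM of each of the 7 genes (y axis, linear from 0) by strain (x axis), with stationary phase in red and diauxic shift in blue, where each point is a library and each line the mean of 2. TPS3 runs from 140 to 288 in the Δtup1 and Δsds3 libraries and from 64.3 to 103 in the others, and the 2 blue points of Δsds3 stand far apart for most genes.

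The first comparison asked how loss of Tup1 changed these genes at stationary phase, and 4 of the 7 were called higher in Δtup1 and none lower. Calls needed an adjusted p (limma, Benjamini-Hochberg over all genes tested) under 0.05 together with a difference of 1.5-fold or more. In this comparison 49.7% of all genes were called, and 25.7% were called higher. The share of all genes whose groups do not overlap was not counted in this or the other comparisons. Values are the deposited normalized counts, which were scaled within each table, so WT values differ between comparisons. For TPS1 in WT at stationary phase they were 9374 and 10564 beside Δxbp1, and 12762 and 14377 beside Δsds3. Normalized counts can thus be set against each other only within a comparison. The synthase subunit gene TPS3 had 1562 and 1414 normalized counts in Δtup1, against 555 and 676 in WT. The Δtup1 libraries lie above both WT libraries, a rise of 1.28 ± 0.21 (SE) on the log2 scale (adjusted p = 0.00045), and TPS3 stayed called under every alternative run, with adjusted p of at most 0.0021. NTH2, the second neutral trehalase gene, had 2517 and 2622 normalized counts in Δtup1, against 1042 and 1426 in WT, a rise of 1.08 ± 0.22 (adjusted p = 0.0018).

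TPS2, for the phosphatase, had 5986 and 5815 normalized counts in Δtup1, against 3111 and 3959 in WT. It rose by 0.75 ± 0.21 (adjusted p = 0.012). NTH1, for the main neutral trehalase, had 8798 and 8452 normalized counts in Δtup1 and 5031 and 6273 in WT, and rose by 0.62 ± 0.21 (adjusted p = 0.031). Neither group overlaps for these genes, but the calls of TPS2 and NTH1 rest on WT library A, without which their log2 differences were 0.58 (adjusted p = 0.13) and 0.46 (adjusted p = 0.24). NTH1 also fell short of 1.5-fold when libraries were scaled to total reads (0.52). TPS1, for the synthase itself, had 15720 and 13377 normalized counts in Δtup1, against 10180 and 11791 in WT, and did not pass the test (0.40 ± 0.22, adjusted p = 0.15). TSL1 (0.32 ± 0.20, adjusted p = 0.22) and ATH1 (-0.23 ± 0.21, adjusted p = 0.38) did not pass either, and ATH1 was the only member with a negative estimate.

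At diauxic shift, 0 of the 7 genes were called in Δtup1, where 20.1% of all genes were. TPS3 came closest, with 4545 and 3906 normalized counts in Δtup1, against 2198 and 2572 in WT. Its groups did not overlap, and its log2 difference of 0.83 ± 0.30 missed the threshold (adjusted p = 0.059, against 0.029 in DESeq2, which called it, and 0.029 to 0.28 over all alternatives). The other 6 log2 differences lay between -0.26 (ATH1) and 0.13 (TPS1), each smaller than its SE of 0.31 to 0.36. The difference between the phases of the Δtup1 effect was called for 0 of the 7 genes and for 9.69% of all genes. Its largest estimate was that of NTH2, 0.94 ± 0.33 (adjusted p = 0.088 in limma's interaction term), followed by TPS2 at 0.84 ± 0.35 (adjusted p = 0.14), so a Δtup1 effect particular to stationary phase was not shown for any member.

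Loss of Sds3 went with changes in opposite directions within the pathway at stationary phase, where 4 of the 7 genes were called lower and 1 higher. Of all genes, 53.0% were called in that comparison, 25.4% lower and 27.6% higher. TPS1 had 5398 and 5169 normalized counts in Δsds3, against 12762 and 14377 in WT, and fell by 1.36 ± 0.17 on the log2 scale (adjusted p = 8.3e-05 in limma). TSL1 had 2752 and 2225 normalized counts in Δsds3 and 4737 and 5178 in WT, and fell by 1.00 ± 0.16 (adjusted p = 0.00039). Its paralog TPS3 moved the other way, with 1466 and 1499 normalized counts in Δsds3, against 696 and 824 in WT, a rise of 0.97 ± 0.15 (adjusted p = 0.00028). The complex thus had fewer transcripts of the synthase and of Tsl1 and more of Tps3 in Δsds3. The groups did not overlap for these genes, but neither did they for TPS2 and NTH2, which were not called. Whether the fall of TSL1 is called depends on the scaling between libraries, as given below.

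ATH1 had 2222 and 2374 normalized counts in Δsds3, against 4691 and 5558 in WT, and fell by 1.15 ± 0.16 (adjusted p = 0.00012). NTH1 had 4367 and 4413 normalized counts in Δsds3, against 6307 and 7649 in WT, and fell by 0.66 ± 0.17 (adjusted p = 0.0058), a call lost without WT library B (-0.52, adjusted p = 0.058) and under 1.5-fold in the fit of all libraries of the phase (-0.57). NTH2 passed on the adjusted p but was under 1.5-fold (-0.43 ± 0.17, adjusted p = 0.043), though called without WT library A (-0.64, adjusted p = 0.011), and TPS2 did not pass (-0.37 ± 0.17, adjusted p = 0.080). The size of these differences rests on the scaling between libraries, since scaling to total reads, an alternative chosen after the data were seen, moves the median of all genes to 0.56 in place of 0.00. With it TPS3 (1.53), TPS1 (-0.80) and ATH1 (-0.59) were still called, TSL1 (-0.44) and NTH1 (-0.10) were not, and the estimates of TPS2 (0.19) and NTH2 (0.13) turned positive. The TMM factors of the Δsds3 libraries at stationary phase were 1.38 and 1.53, against 1.00 and 1.01 in WT.

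At diauxic shift, 0 of the 7 genes were called in Δsds3, and 2.79% of all genes were. TPS3 had 4907 and 8174 normalized counts in Δsds3, against 2500 and 2878 in WT (1.24 ± 0.45, adjusted p = 0.15), and ATH1 had 6884 and 3032, against 10216 and 10325 (-1.17 ± 0.51, adjusted p = 0.21). Both Δsds3 libraries lie on the same side of WT for these genes, and on the same side as at stationary phase. NTH2 did not overlap WT either, but its side differed between the phases. It had 5739 and 11090 normalized counts in Δsds3 at diauxic shift, above 4953 and 5039 in WT. At stationary phase it had 1146 and 1089, below 1306 and 1738 in WT. The side at stationary phase rests on the scaling between libraries, since scaling to total reads gave 0.13. The difference between the phases was not called for NTH2 (adjusted p = 0.54 in limma's interaction term). The share of all genes without overlap was not counted. For TPS1 the Δsds3 libraries had 16160 and 67266 normalized counts, against 40145 and 56041 in WT, and for TSL1 they had 5545 and 29932, against 16706 and 33445. For TPS1 they thus fall on either side of WT, and the signs for TPS1, TPS2, TSL1 and NTH1 depended on which Δsds3 library was kept. Without Δsds3 library A, 4 members were called (TPS3 1.61, NTH1 1.12, NTH2 1.15 and ATH1 -1.76), and without library B 2 others (TPS1 -1.55 and TSL1 -2.09). The share of all genes called was then 40.1% without library A and 32.0% without library B, so these counts of members are near the share of all genes. The difference between the phases of the Δsds3 effect was called for 0 members and for 0.0809% of all genes.

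**Figure D2:**
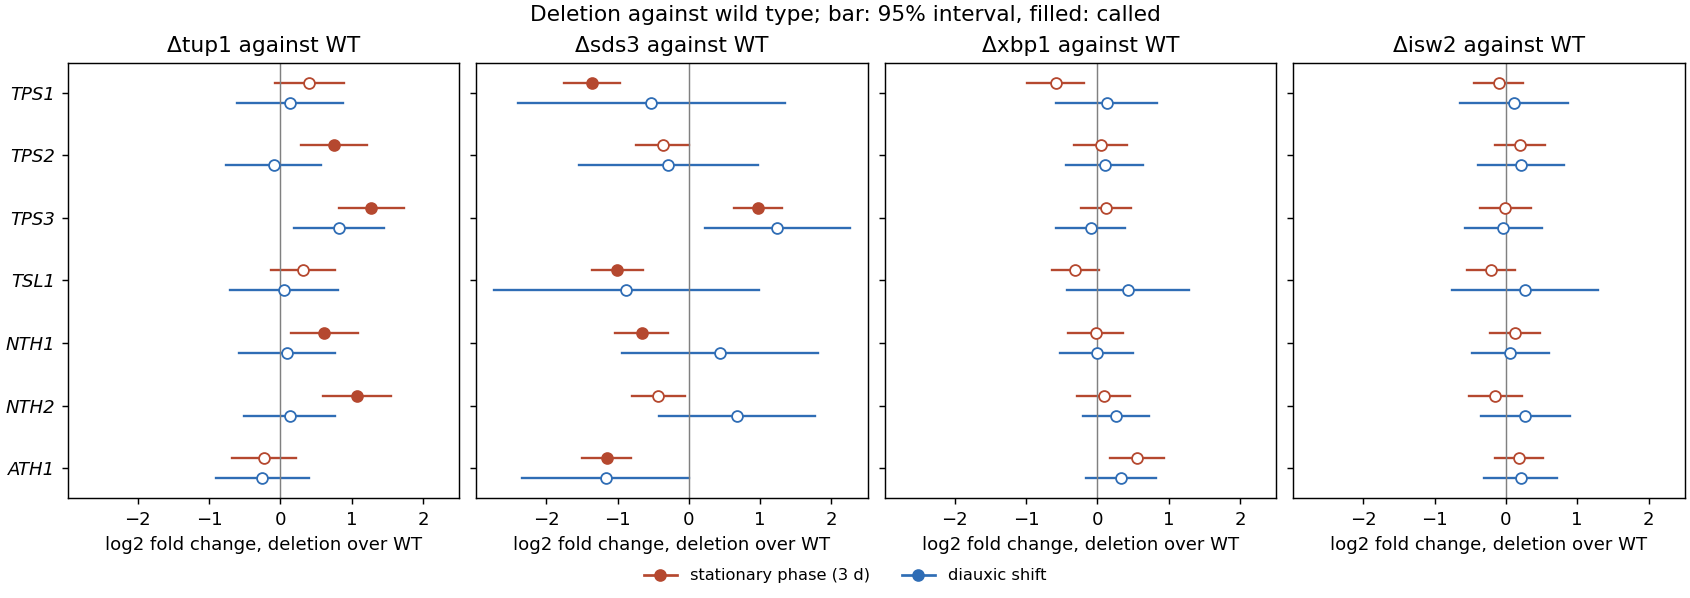
Log2 fold change of each gene, deletion over WT (x axis), for the 4 deletions (panels), with stationary phase in red above diauxic shift in blue, the 95% interval as a bar, and filled points where the gene was called. Filled points are found only at stationary phase, 4 in Δtup1 and 5 in Δsds3, and TPS3 is the only gene filled on the right in both.

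In Δxbp1, 0 of the 7 genes were called at stationary phase, where 23.9% of all genes were, but 2 members stood just under the fold threshold on opposite sides. ATH1 had 5089 and 5995 normalized counts in Δxbp1, against 3446 and 4084 in WT (0.56 ± 0.17, adjusted p = 0.030 in limma, 0.0048 to 0.16 over the alternatives). TPS1 had 6258 and 7047 in Δxbp1, against 9374 and 10564 in WT (-0.58 ± 0.18, adjusted p = 0.032, 0.0033 to 0.16 over the alternatives). The groups did not overlap for either gene. ATH1 was called when libraries were scaled to total reads (0.70), without WT library B (0.68) or without Δxbp1 library A (0.68), and TPS1 without WT library A (-0.67) or without Δxbp1 library B (-0.67). TSL1 had a difference of -0.31 ± 0.15 (adjusted p = 0.15), and the other 4 members lay between -0.02 and 0.11. At diauxic shift 0 members were called, beside 0.465% of all genes, with estimates between -0.10 (TPS3) and 0.42 (TSL1), and the difference between the phases was called for 0 members and 0.722% of all genes.

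Loss of Isw2 went with no called change in any of the 7 genes, against 1.92% of all genes at stationary phase and 0.0960% at diauxic shift. At stationary phase the log2 differences lay between -0.21 (TSL1) and 0.19 (TPS2), and 0 of the 7 had an unadjusted p under 0.05. The 95% interval of TPS3 was -0.36 to 0.35 and that of TPS1 was -0.45 to 0.24. At diauxic shift the intervals were wider, up to -0.76 to 1.29 for TSL1. Its libraries at that phase were uneven within both strains, with 20005 and 34741 normalized counts in Δisw2 and 15282 and 31486 in WT. The difference between the phases was called for 0 members and for 0% of all genes (247 genes had an unadjusted p under 0.05, and edgeR called 0). In the comparisons with WT that called 0 members, members and all genes with an unadjusted p under 0.05 in limma were counted. They were 1 member and 2100 of 6295 genes in Δtup1 at diauxic shift. In Δsds3 at diauxic shift they were 2 members and 1487 of 6340 genes. In Δxbp1 at stationary phase they were 2 members and 2440 of 5968 genes. The other 3 had 0 members. All genes there were 470 of 6243 in Δxbp1 and 248 of 6247 in Δisw2 at diauxic shift, and 889 of 5953 in Δisw2 at stationary phase. The edgeR test called 0 members in all 6 of these comparisons, where it called 0.0960% to 24.6% of all genes. DESeq2 called TPS3 alone, in Δtup1, where it called 22.4% of all genes.

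Stationary phase was compared with diauxic shift in each strain on reads recovered from the tables and scaled together by TMM over the 20 libraries. Depth goes with phase here, and its part in these differences was not tested. In WT, 0 of the 7 genes were called, and 16.6% of all genes were. TSL1 had 438 and 479 RPM in WT at stationary phase, against 573 and 1162 at diauxic shift, a difference of -0.83 ± 0.53 (adjusted p = 0.31 in limma) that was under the spread between the diauxic shift libraries, which were 1.02 apart on the log2 scale. ATH1 had 434 and 514 RPM at stationary phase, against 350 and 359 at diauxic shift (0.41 ± 0.28, adjusted p = 0.34). The 95% interval of the WT difference held 0 for each of the 7 genes, from -1.96 to 0.30 for TSL1 to -0.87 to 0.08 for TPS3.

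In Δtup1, where 27.8% of all genes were called between the phases, NTH1 was the only member called. It had 1010 and 951 RPM at stationary phase, against 482 and 589 at diauxic shift, a rise of 0.88 ± 0.31 (adjusted p = 0.046), and the call was lost in edgeR (adjusted p = 0.051) and without any single Δtup1 library (adjusted p from 0.064 to 0.28). TPS2 (0.78 ± 0.30, adjusted p = 0.060) and NTH2 (0.66 ± 0.27, adjusted p = 0.077) had estimates of the same sign. In Δsds3, with 8.07% of all genes called, NTH2 fell by 1.42 ± 0.27 (adjusted p = 0.0081), with 110.2 and 101.5 RPM at stationary phase, against 208 and 391 at diauxic shift. That call was lost without either Δsds3 library of stationary phase, and without Δsds3 library A of diauxic shift all 7 members and 47.5% of all genes were called. In Δxbp1 (20.4% of all genes called) TSL1 had 390 and 359 RPM at stationary phase, against 984 and 1227 at diauxic shift, and missed the threshold (-1.55 ± 0.53, adjusted p = 0.051). In Δisw2 (16.7% of all genes called) 0 members were called, and TSL1 had the largest estimate (-1.30 ± 0.53, adjusted p = 0.10). An unadjusted p under 0.05 in limma was found for 0 members and 2073 of 6531 genes in WT. It was found for 3 members and 2343 genes in Δxbp1, and for 2 members and 2108 genes in Δisw2. In these strains edgeR called 0, 1 (TSL1) and 0 members, beside 16.9%, 19.2% and 15.9% of all genes.

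Ratios between members of the same library do not depend on the scaling between libraries, and they are given here per coding base. With 2 libraries a group the smallest two-sided exact p is 0.333, so the ratios are described without a test. All 4 deletions of a phase are set beside the same 2 WT libraries, so their positions against WT are not independent of each other. How often the ratios of other gene pairs lie apart from WT, or apart between the phases, was not counted. The ratio of TPS3 to TSL1 was 0.555 and 0.702 in Δsds3 and 0.346 and 0.279 in Δtup1 at stationary phase, against 0.153 and 0.166 in WT. At diauxic shift it was 0.922 and 0.284 in Δsds3 and 0.217 and 0.188 in Δtup1, against 0.156 and 0.0896 in WT. It was also above WT at stationary phase in Δxbp1 (0.204 and 0.223) and Δisw2 (0.178 and 0.189), while at diauxic shift it was below WT in Δxbp1 (0.0877 and 0.0775) and overlapped WT in Δisw2 (0.112 and 0.0827). Thus TPS3 made up more of this paralog pair than in WT in all 4 deletions at stationary phase, and at diauxic shift in Δtup1 and Δsds3. Neither gene of the pair was called in Δxbp1 or Δisw2. Tsl1 transcripts still outnumbered those of Tps3 in every library.

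Among the trehalases, the ratio of ATH1 to NTH1 was 0.677 and 0.686 in Δxbp1 at stationary phase, against 0.461 and 0.451 in WT, and 0.542 and 0.545 in Δxbp1 at diauxic shift, against 0.404 and 0.456 in WT. It was lower than in WT in Δtup1, at 0.244 and 0.265 at stationary phase and 0.352 and 0.324 at diauxic shift, and in Δsds3, at 0.316 and 0.334 at stationary phase and 0.342 and 0.0583 at diauxic shift. In Δisw2 it was above WT at diauxic shift (0.478 and 0.473) and overlapped WT at stationary phase (0.495 and 0.450). Acid trehalase transcripts thus stood higher beside those of Nth1 in Δxbp1 and lower in Δtup1 and Δsds3, with no overlap with WT at either phase. The ratio of NTH2 to NTH1 was lower at stationary phase than at diauxic shift without overlap in 5 of 5 strains, for example 0.199 and 0.219 at stationary phase, against 0.304 and 0.346 at diauxic shift, in WT. The ratio of TPS2 to TPS1 was higher at stationary phase without overlap in 5 of 5 strains, with 0.169 and 0.186 at stationary phase, against 0.153 and 0.135 at diauxic shift, in WT. At stationary phase it was 0.323 and 0.384 in Δsds3, 0.266 and 0.283 in Δxbp1, 0.225 and 0.211 in Δisw2 and 0.211 and 0.240 in Δtup1, all above WT.

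Summed over the 4 genes of the synthase complex and the 3 trehalase genes, the ratio of synthesis to breakdown transcripts was 2.52 and 2.35 in WT at stationary phase, against 3.11 and 4.80 at diauxic shift. The synthesis sum is mostly TPS1. In WT at stationary phase TPS1 had a mean of 843 TMM-scaled RPM per kilobase, against 150 for TPS2, 139 for TSL1 and 22.2 for TPS3. The summed ratio was lower at stationary phase without overlap in 4 of 5 strains, the exception being Δsds3, with 2.01 and 1.94 at stationary phase and 1.68 and 3.15 at diauxic shift. At stationary phase it was lowest in Δxbp1, at 1.63 and 1.56, and it overlapped WT only in Δtup1, at 2.48 and 2.25. The enzymes are also controlled by phosphorylation, which was not measured, so these are ratios of transcripts only.

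**Figure D3:**
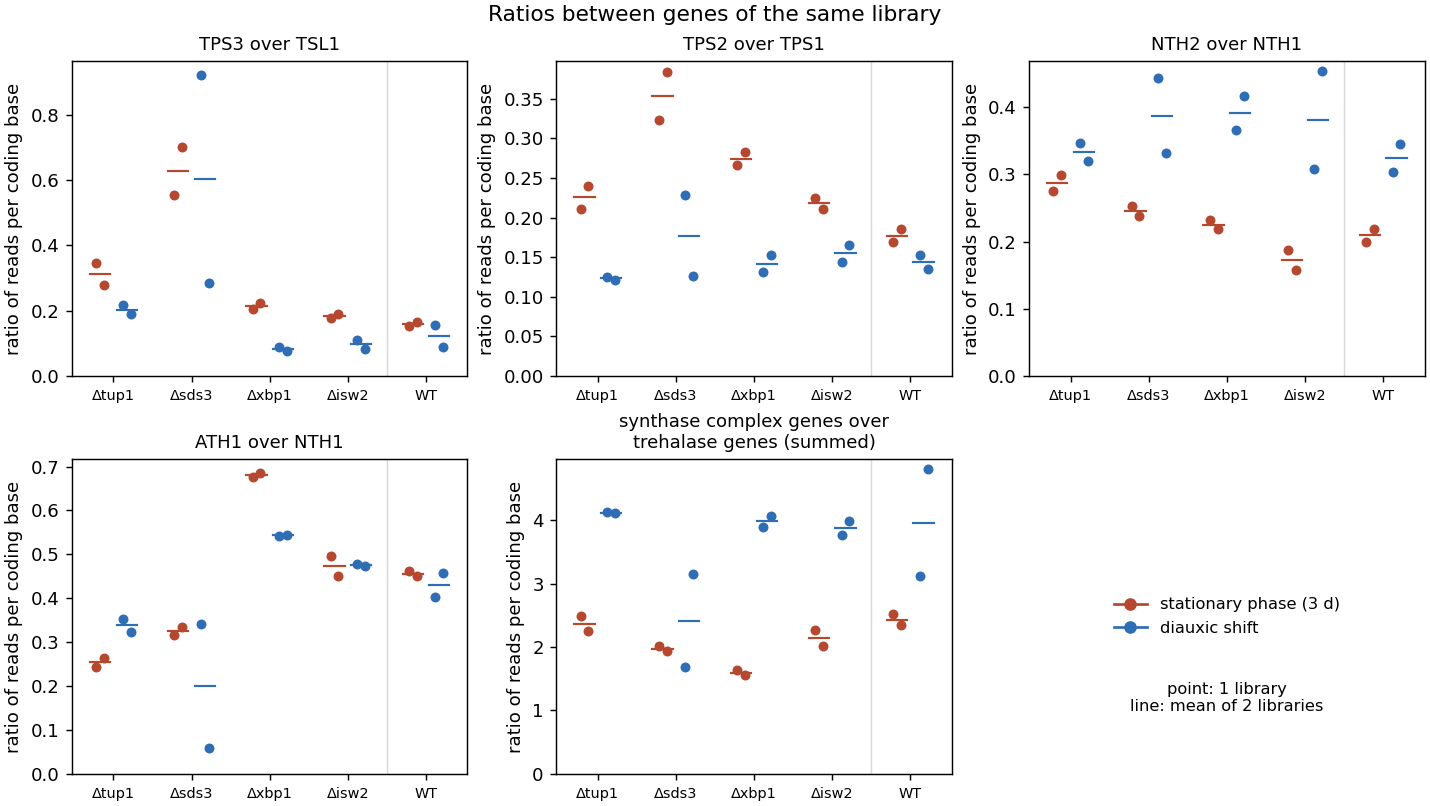
Ratio of reads per coding base between members in the same library (y axis, linear from 0) by strain (x axis), with stationary phase in red and diauxic shift in blue, where each point is a library and each line the mean of 2. Red lies below blue for NTH2 over NTH1 and above blue for TPS2 over TPS1 in all 5 strains, and for TPS3 over TSL1 the points of Δsds3 stand highest among the red points (0.555 and 0.702), below the blue point of Δsds3 library A (0.922).

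Genes around the pathway were taken from 4 lists of 41 genes. All of them were tested in each comparison with WT. At stationary phase the shares of all genes called higher and lower were 25.7% and 24.0% in Δtup1, 27.6% and 25.4% in Δsds3, and 12.3% and 11.5% in Δxbp1, and the counts below stand beside these. As for the members, the Δsds3 values at stationary phase rest on the scaling between libraries. Scaling to total reads moved the median of all genes to 0.56 there, and the lists were not counted again with it. Of 6 genes that supply glucose 6-phosphate and UDP-glucose, 3 were called higher and 0 lower in Δtup1 at stationary phase (median 0.68, against 0.00 for all genes), led by UGP1, which makes UDP-glucose (2.36 ± 0.21, adjusted p = 6.5e-06 in limma). In Δsds3 at stationary phase 2 were called higher and 3 lower (median -0.40, against 0.00), from PGM1, a phosphoglucomutase gene (3.04 ± 0.17, adjusted p = 7.1e-07), to HXK1, a hexokinase gene (-1.56 ± 0.16, adjusted p = 2.3e-05). In Δxbp1 0 were higher and 2 lower (median -0.30, against -0.01), with the hexokinase gene HXK2 the lowest (-1.59 ± 0.20, adjusted p = 0.00011).

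Of 14 genes that control the transcription of the pathway or the neutral trehalase, 2 were called higher and 3 lower in Δtup1 at stationary phase (median -0.16). The activator gene MSN4 rose by 2.06 ± 0.21 (adjusted p = 1.9e-05), and RIM15, for a kinase needed to enter quiescence, fell by 1.37 ± 0.22 (adjusted p = 0.00039). Of the same genes 1 was higher and 10 were lower in Δsds3 (median -1.17), from TPK3, for a catalytic subunit of protein kinase A (0.79 ± 0.23, adjusted p = 0.011), to DCS2 (-1.72 ± 0.16, adjusted p = 1.2e-05).

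Of 14 other genes known to depend on Msn2 and Msn4, 4 were called higher and 2 lower in Δtup1 at stationary phase (median 0.14), with the cell wall gene SPI1 the highest (2.63 ± 0.25, adjusted p = 1.0e-05) and DDR2 the lowest (-1.20 ± 0.25, adjusted p = 0.0020). In Δsds3 0 were higher and 10 lower (median -1.57), led by CTT1, for cytosolic catalase (-4.82 ± 0.16, adjusted p = 1.3e-07). In Δxbp1, where 11.5% of all genes were lower, 0 were higher and 10 lower (median -0.87), led by ALD3, for an aldehyde dehydrogenase (-1.94 ± 0.19, adjusted p = 2.5e-05). The 7 trehalose genes had medians of 0.62 in Δtup1, -0.66 in Δsds3 and 0.05 in Δxbp1 in the same comparisons.

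Of the 7 genes for glycogen, the other reserve carbohydrate, 7 were called higher in Δtup1 at stationary phase (median 1.32), where 25.7% of all genes were, with the glycogen synthase gene GSY1 the highest (2.73 ± 0.25, adjusted p = 9.4e-06). In Δsds3 3 were higher and 0 lower (median 0.53), again led by GSY1 (1.58 ± 0.16, adjusted p = 1.9e-05), and in Δxbp1 1 was higher, GDB1 for the debranching enzyme (1.38 ± 0.19, adjusted p = 0.00020). In Δisw2 0 of the 41 genes were called at either phase. At diauxic shift 13.8% of all genes were called higher in Δtup1 and 6.27% lower. There Δtup1 had 3 supply genes called higher with HXK1 the highest (2.46 ± 0.35, adjusted p = 1.9e-05), MSN4 higher (1.02 ± 0.31, adjusted p = 0.025), RIM15 lower (-0.86 ± 0.31, adjusted p = 0.0497), 4 stress genes higher led by SPI1 (2.85 ± 0.41, adjusted p = 2.6e-05) and 4 glycogen genes higher led by the phosphorylase gene GPH1 (1.87 ± 0.36, adjusted p = 0.00063). In Δsds3 at diauxic shift only PGM1 (3.52 ± 0.60, adjusted p = 0.030) and the cell wall gene YGP1 (-3.39 ± 0.58, adjusted p = 0.030) were called, beside 1.94% of all genes higher and 0.852% lower, and in Δxbp1 0 of the 41 were. The Δsds3 estimates of that phase pool both libraries, which stand far apart.

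**Figure D4:**
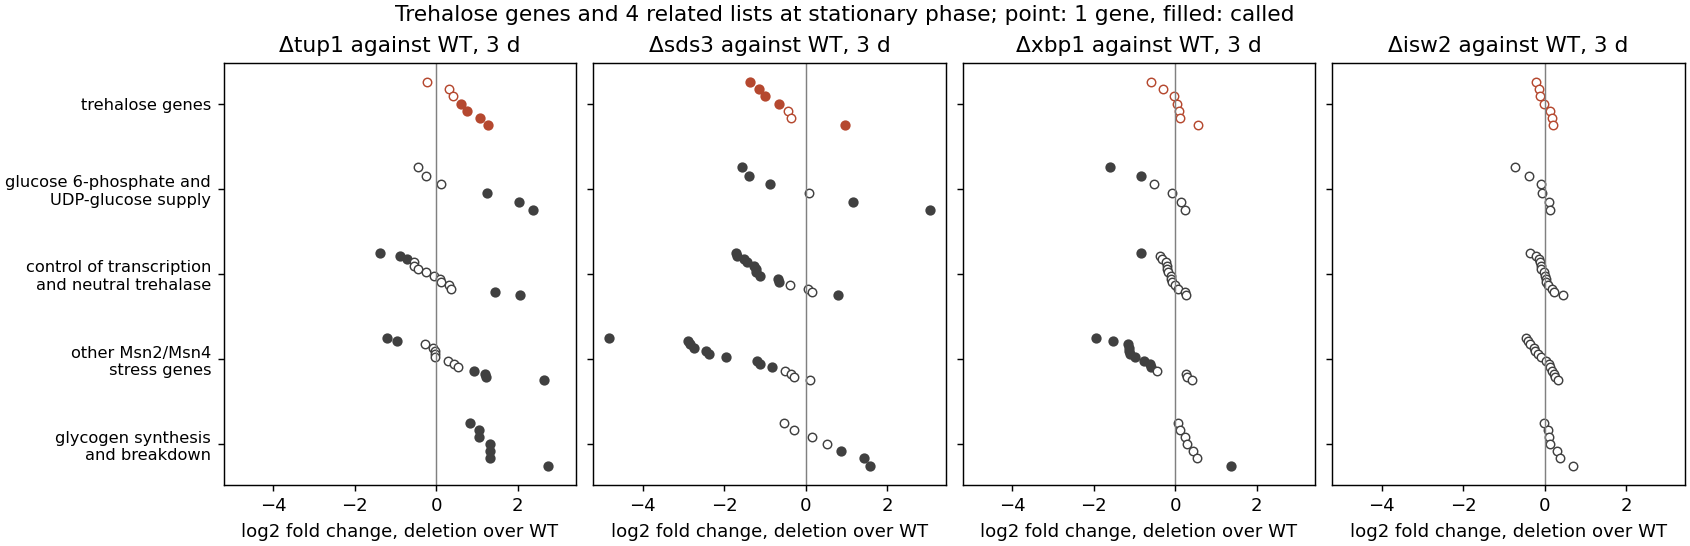
Log2 fold change, deletion over WT, at stationary phase (x axis) for the 7 trehalose genes (red) and the genes of 4 related lists (black), with a panel for each deletion, a point for each gene, and filled points where the gene was called. All 7 glycogen genes are filled on the right in Δtup1, 10 of 14 stress genes are filled on the left in both Δsds3 and Δxbp1, and no point is filled in Δisw2.

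Likeness of pattern was measured across the 20 libraries as Pearson's r of log2 TMM-scaled RPM after the mean of each phase was subtracted, among 5443 genes, and is a description, since libraries of a strain share their deletion. The Δsds3 libraries of diauxic shift, which stand far apart, are included. Library B minus library A there was 2.39 for TSL1, 2.02 for TPS1 and -1.22 for ATH1 on the log2 scale. Their part in the values of r and in the nearest genes was not tested. TSL1 and TPS1 had an r of 0.89, TPS1 and TPS2 0.88, and NTH1 and NTH2 0.85, while TPS3 had -0.15 with TSL1, -0.07 with TPS1 and -0.80 with ATH1. The genes most like TPS1 were TFS1 (0.94), SNA3 (0.94) and NFS1 (0.93). For TPS2 they were MBF1 (0.88), TPS1 (0.88) and HUA1 (0.86). For TSL1 they were MTC7 (0.90), AAT2 (0.90) and IDP1 (0.89). NTH1 was most like EDE1 (0.91), LAM5 (0.90) and MAP2 (0.90), and NTH2 like EDE1 (0.90), ATG11 (0.86) and NTH1 (0.85). TPS3 was most like ETT1 (0.95), YLR179C (0.94) and FAS2 (0.93), and ATH1 like FUS2 (0.94), RPN11 (0.93) and YEN1 (0.92).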

How the data were processed

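Per the labels and the study's methods, paired reads of 37 cycles from poly-A selected libraries were aligned to sacCer3 with Bowtie2 and compared with DESeq2. The counting program and annotation are not given in the sources used here. The authors deposited a table for each deletion and phase, whose signal is the read count of a gene over its library's DESeq2 size factor. The authors' log2 fold changes, their standard errors, Wald scores, p-values and adjusted p-values in the same tables were not used. Dividing each signal column by its smallest step gave whole reads for 100% of values (tolerance 0.1). Columns name a group but not a sample, so libraries were called A (ending in 1) and B, and the strain number of B differs from that of A for the deletions at stationary phase. Nothing beyond the study's statement of 2 biological replicates says how cultures were kept apart.

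Each deletion was compared with WT in limma 3.58.1 (R 4.3.3) on the log2 of the signal plus 1, with a trend, after filterByExpr of edgeR 4.0.16, and calls needed an adjusted p under 0.05 and 1.5-fold, or the adjusted p alone for the difference between phases. Phases were compared on recovered reads with TMM scaling in 1 fit of the 20 libraries (6531 genes). The scripts were tested on simulated data. Alternatives were edgeR's quasi-likelihood test on recovered reads, DESeq2 1.42.0, TMM, upper-quartile and total-read scaling, a pseudocount of 5, no filter, an adjusted p under 0.01, fits over more or fewer groups, a replicate block, and leaving out each library. Intervals are 95%. With 2 libraries a group the smallest exact p is 0.333, so p-values come from the model over all genes, and the number of libraries and the depth of library B at stationary phase limit precision. Named are all 7 members, the called gene of each list with the largest rise and fall, and the 3 genes of most like pattern. The result of 1 list gene is not reported here. The members and lists were chosen with earlier results of these data known.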

Additional observations from a re-analysis of the deposited data

How the results depend on the processing

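Calls rest on 2 libraries a group, and 1 library decided several. In Δtup1 at stationary phase 4 members were called, 2 at an adjusted p under 0.01 and 2 to 4 when a library was left out. In Δsds3 at stationary phase the 5 calls became 3 with scaling to total reads, an alternative that was added after the data were seen, 4 in the fit of all libraries of the phase, and 4 to 6 when a library was left out. For the comparisons with 0 members called, DESeq2 called 1 in Δtup1 at diauxic shift, the fit of all libraries of the phase called 2 in Δsds3 at diauxic shift, where leaving out a library gave 0 to 4, scaling to total reads called 1 in Δxbp1 at stationary phase, where leaving out a library gave 1 in each case, and leaving out a library gave 0 to 3 for the difference between phases of the Δsds3 effect (3 without Δsds3 library A of diauxic shift, with 29.3% of all genes called) and 0 to 1 for that of the Δxbp1 effect. For that of the Δtup1 effect, scaling to total reads called 1. Between the phases, the 1 call in Δtup1 became 0 in edgeR, 2 in the fit of its own libraries, 3 with total reads and 0 when a library of it was left out. The 1 call in Δsds3 became 2 in edgeR, 0 in the fit of its own libraries and 0 to 7 when a library was left out. The 0 calls in Δxbp1 became 1 in edgeR, 3 in the fit of its own libraries and 1 with upper-quartile scaling, and the 0 calls in Δisw2 became 2 in the fit of its own libraries. The share of all genes called moved as well. Between the phases the fit of the strain's own libraries called 24.9% in Δtup1, 0.00% in Δsds3, 35.0% in Δxbp1 and 31.9% in Δisw2. The main fit called 27.8%, 8.07%, 20.4% and 16.7%. At diauxic shift the fit of all libraries of the phase called 23.8% in Δsds3, against 2.79%. At stationary phase an adjusted p under 0.01 called 35.4% in Δtup1, and scaling to total reads called 57.0% in Δsds3. The cause of these changes was not tested. No called member changed sign under any alternative run. The replicate numbers do not pair the libraries by their labels, and the deviations of library A from its group mean correlated at -0.08 to 0.59 between a deletion and WT. With a replicate block, the count of called members became 2 in Δtup1 and 1 in Δxbp1 between the phases and was unchanged in the other 15 comparisons.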
